A study of Mus musculus with 4 samples.

Results

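The Btg and Tob genes form a family of 6 antiproliferative genes, Btg1, Btg2, Btg3, Btg4, Tob1 and Tob2, and they were read here by 14 of the 45037 probe sets on 4 Affymetrix arrays of MC/9 mouse mast cells. The family was chosen by the berberine differences of Btg1, of which 2 probe sets read higher with berberine in both pairs of arrays, so those differences are a description and support nothing. All probe sets annotated to a listed gene were taken, with no choice among them. Of the 14 probe sets, 10 had a mean log2 signal at or above 3.138, the median of all probe sets, which served as the filter on dim signals.

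The 4 groups were cells given both berberine and anti-DNP IgE (BER+DNP), cells given anti-DNP IgE alone at 500 microg/ml (DNP), cells given berberine alone at 10 microM (BER) and untreated cells (control). Per the labels, the treated cells had 24 h of treatment and then 6 h of culture, and no times are given for the control. MC/9 is 1 immortal mouse mast cell line, of (B6 X A/J)F1 background and liver origin, and all 4 groups share its medium with Rat T-STIM, a supplement of T cell products. The labels name IgE and no antigen. Each group held 1 array, so no difference has a replicate error, no p-value was computed, and the number of arrays limits the precision. Berberine, an alkaloid of barberry and related plants, blocks complex I of the mitochondrial respiratory chain. The series set out to find genes behind its anti-inflammatory action in IgE-activated cells.

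The 4 arrays had median log2 signals between 3.13 and 3.15. Of 13 measured mast cell markers, 6 read at or above the filter, as did 9 of 10 epithelial markers, 6 of 8 fibroblast markers, 3 of 6 macrophage markers and 3 of 7 general blood cell markers. Of all genes, each read like the markers by its brightest probe set, 12585 of 18193 did. Gata2, Hdc, Tpsb2, Mcpt4, Fcer1g and Cma1 passed it, with mean log2 signals between 3.31 and 5.87, and Kit, Fcer1a, Ms4a2, Cpa3, Tpsab1, Mitf and Srgn missed it, with means between 1.95 and 2.78. Among the epithelial markers, Cdh1 missed it and Krt17 had the highest mean, 9.60. Signals of different probe sets are not on 1 scale, so these counts say only which markers were dim. Of the IgE receptor genes, Fcer1a and Ms4a2 missed the filter and Fcer1g passed it. The identity of the cells was taken from the labels and was not tested. The summed linear signal of the mast cell markers was 212 in BER+DNP and 211 in DNP, and 185 in BER and 184 in control. This sum was nearly level with berberine, but single markers in it moved in opposite directions. In BER+DNP against DNP, Hdc and Tpsb2 were higher, and Gata2, Fcer1g, Cma1 and Mcpt4 were lower. In BER against control, Tpsb2, Cma1, Mcpt4 and the dim Cpa3 were higher, and Hdc, Gata2 and Fcer1g were lower. The level sum therefore does not show that each marker was steady. That of the epithelial markers was 1587 in BER+DNP and 1628 in DNP, and 1498 in BER and 1479 in control. In RNA from a whole culture, fewer cells of a type and less RNA per cell cannot be told apart.

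Btg and Tob proteins share an N-terminal domain that binds the deadenylase subunits Cnot7 and Cnot8 of the CCR4-NOT complex. Through it they speed the shortening of poly(A) tails and so the decay of mRNA, and forced expression of several of them slows cell division. Btg1 and Btg2 help to keep mouse T cells quiescent, Btg2 is also a p53 target and an immediate early gene, Btg4 clears maternal mRNA in the egg, and the longer Tob1 and Tob2 proteins also bind the poly(A)-binding protein Pabpc1.

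The promoters of Btg1, the member with the largest differences, and of Btg2, its closest relative, are shown because both genes are known to answer to signal-driven transcription factors. RefSeq places Btg1 at chr10:96617001-96622813 and Btg2 at chr1:134074865-134079155. The sequences are the 250 bases before the start of each gene in RefSeq annotation of mouse build GRCm38.p6, at chr10:96616751-96617000 on the plus strand for Btg1 and at chr1:134079156-134079405 on the minus strand for Btg2. Capitals mark the FoxO core TGTTTAC and TGACG, the core of the cAMP response element, searched on both strands; these motifs were chosen after the Btg1 sequence had been read.
Btg1: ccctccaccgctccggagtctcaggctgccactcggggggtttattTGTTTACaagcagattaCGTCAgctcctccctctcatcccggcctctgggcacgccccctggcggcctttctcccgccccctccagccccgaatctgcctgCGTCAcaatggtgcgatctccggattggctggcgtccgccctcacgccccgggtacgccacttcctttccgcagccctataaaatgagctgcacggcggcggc
Btg2: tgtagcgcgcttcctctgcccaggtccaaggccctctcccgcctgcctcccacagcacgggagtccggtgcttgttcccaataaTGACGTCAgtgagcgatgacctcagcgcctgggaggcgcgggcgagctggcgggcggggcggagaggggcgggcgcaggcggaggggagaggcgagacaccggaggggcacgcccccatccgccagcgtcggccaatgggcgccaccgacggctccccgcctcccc

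Btg1 held the FoxO core at positions -204 to -198 from its start and the TGACG core, on its minus strand, at -187 to -183 and -103 to -99. Btg2 held the full element TGACGTCA at -166 to -159, which contains the TGACG core on both strands. Of 32851 promoter windows of the same length, 3.17% held the FoxO core, 17.8% the TGACG core and 1.55% the full element. Among the 6 members, only Btg1 held the FoxO core, only Btg2 the full element, and Btg1, Btg2 and Tob1 the TGACG core. The CCAAT box was in the windows of 5 members, all but Tob2, and in 33.8% of all windows. The composite motif of ATF4 and C/EBP factors, TGATGNAAN, was in none of the members' windows and in 3.44% of all windows. These matches describe letters and show no binding.

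Btg1 was read by 3 probe sets, and its bright ones were higher with berberine in the absence and in the presence of anti-DNP IgE. The brightest, 1437455_a_at, had a log2 signal of 10.00 in BER, against 8.97 in control, and of 10.07 in BER+DNP, against 9.24 in DNP. The next, 1426083_a_at, had 9.07 in BER, against 8.03 in control, and 8.87 in BER+DNP, against 8.09 in DNP. In both probe sets the 2 arrays with berberine lay above the 2 arrays without it.

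These signals correspond to a 2.04-fold higher reading in BER than in control and a 1.77-fold higher one in BER+DNP than in DNP for 1437455_a_at, and to 2.05-fold and 1.72-fold for 1426083_a_at. The log2 differences of 1437455_a_at were 1.03 and 0.83, and those of 1426083_a_at 1.03 and 0.79. Both probe sets carry the suffix a, of the type whose probes match several transcripts of 1 gene, and none of the probe sequences was used here. The berberine differences of the 2 probe sets differed from each other by 0.0028 and 0.042. They read the same RNA on the same arrays, so this does not repeat the experiment.

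The third Btg1 probe set, 1442018_at, did not show the difference. It lay below the filter, at 2.41 in BER+DNP, 2.41 in DNP and 2.41 in BER, against 2.63 in control. The deposited values of its 3 lower arrays are identical to the last digit, as happens on 3 or 4 arrays for 0.833% of all probe sets. It therefore gives no measure of Btg1 at these signals.

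**Figure D1:**
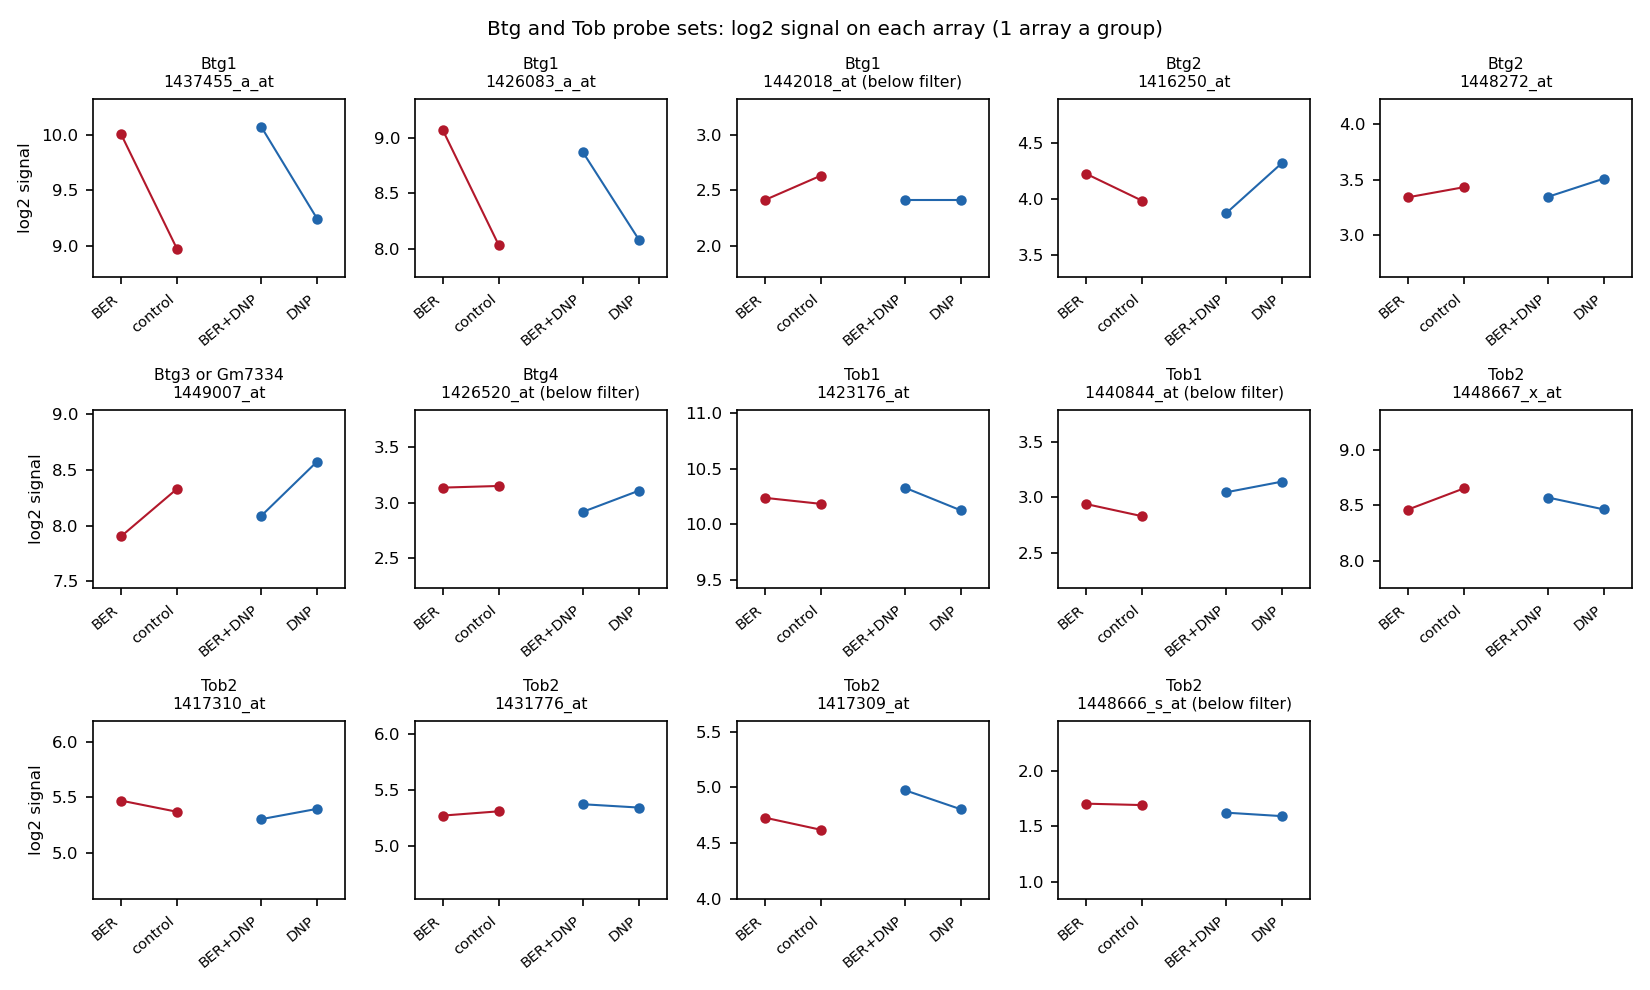
Deposited log2 signal (y axis, a span of 1.6 in every panel) of each of the 14 Btg and Tob probe sets on the 4 arrays, with red lines joining BER to control and blue lines joining BER+DNP to DNP; each point is 1 array. The lines of Btg1 1437455_a_at (10.00 in BER, 8.97 in control) and 1426083_a_at drop steeply from left to right in both pairs, and those of Btg3 or Gm7334 climb.

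Btg2, the relative closest to Btg1, was not higher with berberine in both pairs. Its brighter probe set, 1416250_at, had a log2 signal of 4.23 in BER, against 3.98 in control, but 3.87 in BER+DNP, against 4.33 in DNP. The array with both agents was the lowest of the 4 and the array with anti-DNP IgE alone the highest. The log2 differences were 0.24 and -0.45, in opposite directions. The second probe set, 1448272_at, had 3.34 in BER, against 3.43 in control, and 3.35 in BER+DNP, against 3.51 in DNP. Its differences of -0.09 and -0.16 were both small and below 0, so the probe sets of Btg2 disagreed in BER against control, and both lie close to the filter.

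No probe set was annotated to Btg3 alone. The probe set 1449007_at is annotated both to Btg3 and to Gm7334, a transcribed pseudogene on chromosome 17, so its signal cannot be given to either. It had 7.90 in BER, against 8.33 in control, and 8.09 in BER+DNP, against 8.57 in DNP. Both arrays with berberine lay below both arrays without it, the opposite order to that of Btg1. Its log2 differences of -0.43 and -0.49 are 1.34-fold and 1.40-fold lower readings, short of 1.5-fold in each pair.

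Btg4 was read by a single probe set, 1426520_at, with a mean log2 signal of 3.08, below the filter. It had 3.13 in BER, against 3.15 in control, and 2.92 in BER+DNP, against 3.11 in DNP. At such signals the differences of -0.01 and -0.19 carry little information about this egg gene.

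Tob1 was nearly level across the arrays. Its bright probe set, 1423176_at, had a log2 signal of 10.24 in BER, against 10.18 in control, and 10.33 in BER+DNP, against 10.13 in DNP. The 4 signals spanned 0.20, with differences of 0.05 and 0.20 in the berberine pairs. The other probe set, 1440844_at, had a mean of 2.99, below the filter, and differences of 0.11 and -0.10.

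Tob2 was read by 5 probe sets, which showed no common direction. The brightest, 1448667_x_at, had a log2 signal of 8.46 in BER, against 8.65 in control, and 8.57 in BER+DNP, against 8.46 in DNP. Its suffix x marks probe sets that can cross-hybridise. The probe set 1417310_at had 5.47 in BER, against 5.37 in control, and 5.30 in BER+DNP, against 5.40 in DNP. Thus it was higher where the brightest was lower, in both pairs, and each difference was under 0.20 in size. The probe set 1431776_at had differences of -0.04 and 0.03, and 1417309_at had 0.11 and 0.17. The fifth, 1448666_s_at, had a mean log2 signal of 1.65, below the filter, and differences of 0.01 and 0.03.

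**Figure D2:**
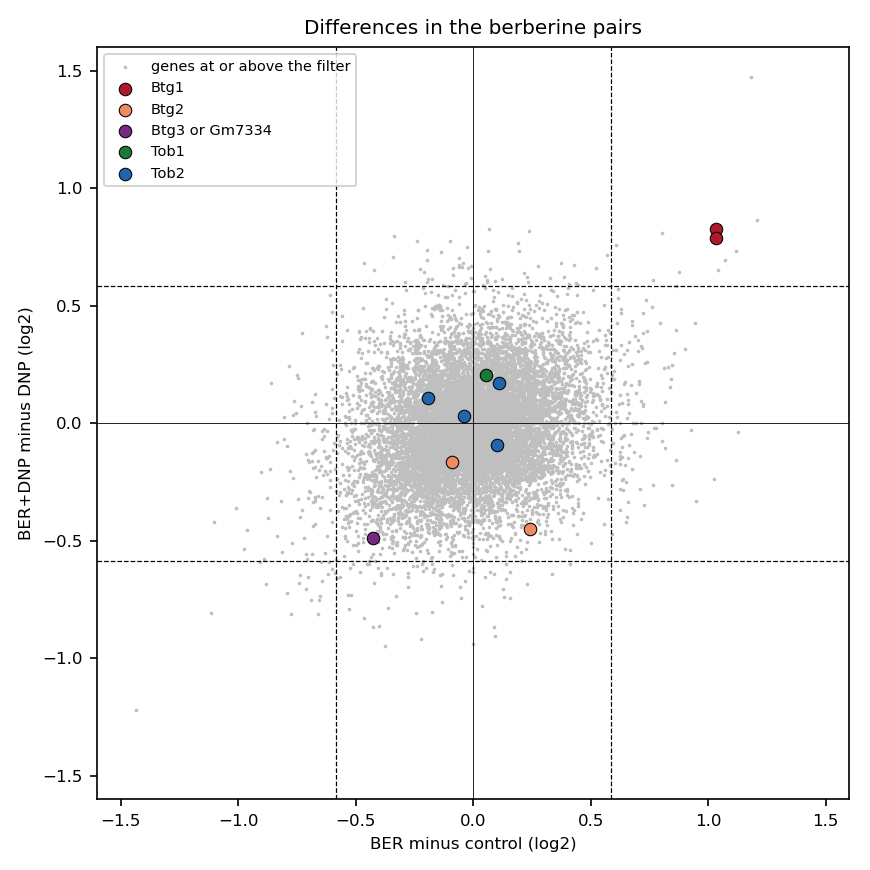
BER minus control (x axis) against BER+DNP minus DNP (y axis), both as differences of log2 signals, for 12585 genes read by their brightest probe set (grey) and for the 10 Btg and Tob probe sets at or above the filter (coloured); dashed lines mark 1.5-fold. Both Btg1 probe sets sit at the upper right (1.03 and 0.83, 1.03 and 0.79), the probe set of Btg3 or Gm7334 lies at the lower left inside the lines (-0.43 and -0.49), and the others lie in the cloud.

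Each gene was then represented by its brightest probe set of 1 gene symbol, which gave 4 members at or above the filter (Btg1, Btg2, Tob1 and Tob2) among 12585 genes. In BER against control, 1 of the 4, Btg1, was at least 1.5-fold higher, as were 1.01% of all genes, and 0 were at least 1.5-fold lower, as were 0.985%. In BER+DNP against DNP, 1 of 4, again Btg1, was at least 1.5-fold higher, against 0.509% of all genes, and 0 were lower by as much, against 0.699%. In both berberine pairs together the counts were 1 higher, against 0.0795% of all genes, and 0 lower, against 0.159%. Of the 10 member probe sets at or above the filter, 2 were at least 1.5-fold higher in both pairs and 0 lower, where 0.0577% and 0.151% of 22519 probe sets were. Btg1 was picked for these readings, so its place in them is a description. It ranked the 7th highest gene in BER against control, the 3rd highest in BER+DNP against DNP, and the 3rd highest by the smaller of the 2 differences.

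The other 3 members held no common direction. In the berberine pairs, 2 of the 4 members, Btg1 and Tob1, lay above 0 in both, where 25.4% of all genes did, and 0 lay below 0 in both, where 29.7% did. The median difference of the 4 members was 0.15 without anti-DNP IgE and 0.16 with it, beside medians of 0.00 and -0.02 over all genes. With 4 members, of which Btg1 was chosen for its readings, these medians stand as values only.

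Anti-DNP IgE was a contrast that did not choose the members, although each array in it also belongs to a berberine pair. No member was 1.5-fold apart in it. In DNP against control, 0 of 4 were at least 1.5-fold higher, where 0.803% of all genes were, and 0 were lower, where 0.628% were. In BER+DNP against BER, 0 of 4 were higher, where 0.556% of all genes were, and 0 were lower, where 0.358% were. In both pairs, 1 of 4, Btg1, lay above 0, where 29.4% of all genes did, and 0 lay below 0, where 26% did.

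Btg1 had a small difference with anti-DNP IgE that depended on the probe set. For 1437455_a_at the log2 signal was 9.24 in DNP, against 8.97 in control, and 10.07 in BER+DNP, against 10.00 in BER, a difference of 0.27 and of 0.07. For 1426083_a_at the differences were 0.05 and -0.20. Both probe sets were thus higher in DNP than in control, by unequal amounts, and they had opposite directions in BER+DNP against BER.

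Btg2 was the member with the largest anti-DNP IgE differences of the 4, in opposite directions. Its probe set 1416250_at gave 0.34 in DNP against control and -0.35 in BER+DNP against BER, while 1448272_at gave 0.08 and 0.00. Tob1 had -0.06 and 0.09, Tob2 had -0.19 and 0.11 by its brightest probe set but 0.03 and -0.17 by 1417310_at, and the probe set of Btg3 or Gm7334 had 0.24 and 0.18. The Btg2 readings amount to 1.27-fold higher in DNP than in control and 1.28-fold lower in BER+DNP than in BER.

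**Figure D3:**
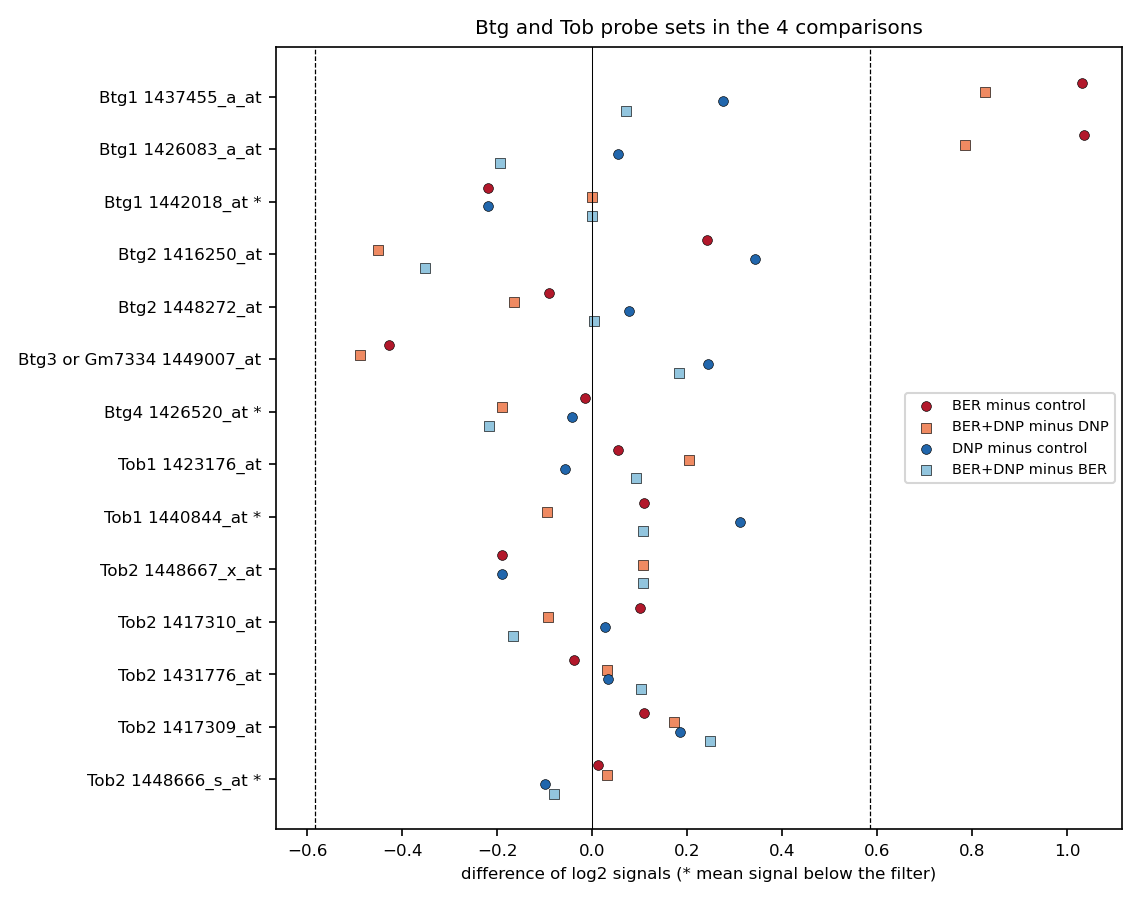
Differences of log2 signals (x axis) of the 14 Btg and Tob probe sets (rows) in the 4 comparisons, with dashed lines at 1.5-fold; red and orange points are the berberine pairs, dark and light blue the anti-DNP IgE pairs, and an asterisk marks a mean signal below the filter. The berberine points of the brighter Btg1 probe sets lie beyond the right line (0.79 to 1.03), and every other point lies between the lines.

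The genes with a pattern most like Btg1 were found by the Euclidean distance between log2 signals over the 4 arrays, each gene centred on its own mean. The 6 nearest were N6amt1, a methyltransferase gene, Abhd4, a lipase gene, Cebpb, which encodes the transcription factor C/EBP beta, Ufsp1, which matures the protein modifier UFM1, Asns, which makes asparagine, and Eral1, an assembly factor gene of the mitochondrial ribosome. Their distances ran between 0.15 and 0.30, where the median gene lay at 0.98 and the other bright Btg1 probe set at 0.25. Being near Btg1 means being higher with berberine on the same arrays, so these genes are a description and no separate support.

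N6amt1, the nearest, had a log2 signal of 4.06 in BER, against 3.02 in control, and 3.95 in BER+DNP, against 3.30 in DNP. Cebpb had 7.90 in BER, against 7.03 in control, and 7.81 in BER+DNP, against 7.22 in DNP. Asns had 5.32 in BER, against 4.20 in control, and 5.05 in BER+DNP, against 4.32 in DNP. In all 3 genes the arrays with berberine lay above those without it, as for Btg1.

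Other probe sets of the nearest genes gave weaker or mixed readings. Cebpb and Asns were higher by a second probe set too, with differences of 0.52 and 0.64 for Cebpb, at a mean signal of 3.09, below the filter, and of 0.35 and 1.19 for Asns. A second probe set of Abhd4 had 0.17 and 0.27, one of N6amt1 -0.11 and 0.04 and one of Ufsp1 -0.09 and 0.38, the last 2 below the filter. The brightest probe sets of Abhd4 and Ufsp1, which gave their place near Btg1, carry the suffix x of probe sets that can cross-hybridise. The 5 other probe sets of Eral1 had differences between -0.24 and 0.16 in the berberine pairs.

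**Figure D4:**
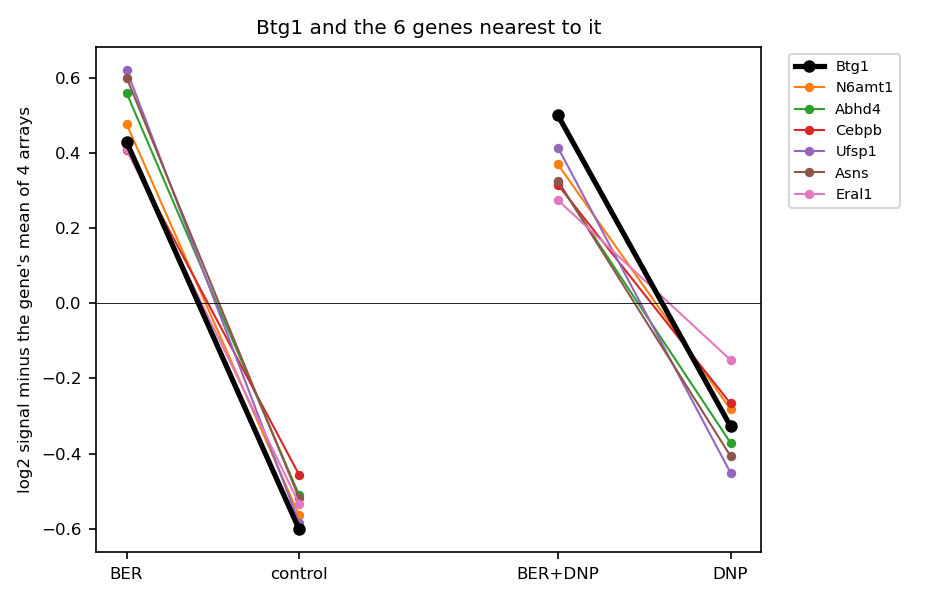
Log2 signal of Btg1 (black) and of the 6 genes nearest to it, each minus its own mean over the 4 arrays (y axis), with lines joining BER to control and BER+DNP to DNP; each point is 1 array. All 7 genes are above 0 on the arrays with berberine and below 0 on those without it, and Btg1 is the highest of them in BER+DNP.

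Genes of the machinery that Btg and Tob proteins work through showed no common direction with berberine. Of 17 genes of the CCR4-NOT complex and of deadenylation at or above the filter, 0 were 1.5-fold apart in either berberine pair, 5 were above 0 in both and 6 below 0 in both. Their median log2 differences were 0.04 without anti-DNP IgE and -0.01 with it. Here and in the lists that follow, the first value or median given for a gene or list is BER minus control and the second BER+DNP minus DNP. All of them stand beside medians over all genes of 0.00 and -0.02, with 25.4% of genes above 0 and 29.7% below 0 in both pairs. Of all genes, 1.01% were at least 1.5-fold higher and 0.985% lower in BER against control. In BER+DNP against DNP these shares were 0.509% and 0.699%. At such shares, a count of 0 or 1 in a list of this size is no result about the list. The deadenylase gene Cnot8 had -0.06 and -0.01, but 0.26 and -0.05 by a second probe set above the filter. Cnot7 was read by 3 probe sets, all below the filter and of no common direction, with -0.23 and 0.14 by the brightest, -0.16 and -0.33 by the next and 0.13 and -0.80 by the dimmest. Pabpc1, which coats poly(A) tails, had a bright and steady signal, with differences of -0.05 and 0.12. The 4 genes of this list with the largest mean size of difference were the scaffold gene Cnot3 (-0.22 and -0.16), Cnot9 (0.34 and 0.00), Cnot10 (0.31 and 0.15) and the ribonuclease gene Parn (-0.06 and -0.36).

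Among 7 other binding partners at or above the filter, 0 were 1.5-fold apart with berberine, 2 were above 0 in each pair and 4 below 0 in each, with medians of -0.23 and -0.08. The first of these medians was -0.07 without the filter and -0.09 when genes were read by the median over their probe sets. Prmt1, an arginine methyltransferase that binds Btg1 and Btg2, had a log2 signal of 5.57 in BER, against 5.97 in control, and 5.51 in BER+DNP, against 5.95 in DNP. Its arrays with berberine both lay below those without it, the reverse of Btg1, with differences of -0.39 and -0.44 from a single probe set. Hoxb9, a homeobox gene whose protein binds Btg1 and Btg2, had 0.11 and 0.01. Smad4, of TGF-beta signalling, had -0.37 and -0.08, and the translational regulators Cpeb3 and Cpeb4 had 0.38 and -0.18, and -0.23 and -0.26.

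In the G1 phase of the cell cycle, which Btg and Tob proteins lengthen, more genes were lower than higher with berberine in both pairs, none by 1.5-fold. Of 15 cyclin, kinase, inhibitor, pocket protein and E2f transcription factor genes, 0 were 1.5-fold apart in either pair. Of these, 1 was above 0 in each pair and 9 below 0 in each, with medians of -0.07 and -0.09. The 9 include kinase and inhibitor genes, whose products act in opposite ways, so the count gives no direction for G1 itself. Some of the 9 lay near 0, as E2f3 did with -0.03 and -0.02. The kinase gene Cdk4 had -0.07 and -0.46, the pocket protein gene Rbl1 -0.20 and -0.50, and the inhibitor genes Cdkn1c and Cdkn2c -0.52 and -0.03, and -0.17 and -0.22. Cdk4 was read by a probe set with the suffix x. Cyclin D1, which Btg proteins can lower, was read by Ccnd1 with -0.08 and -0.18, and the inhibitor gene Cdkn1a had 0.00 and -0.09; these 2 were named after their values were seen.

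Known targets of p53, which acts on Btg2, and of FoxO factors, which act on Btg1, gave 1 gene each past 1.5-fold in a berberine pair. Of 14 p53 targets other than Btg2, 1 was at least 1.5-fold higher in BER against control, where 1.01% of all genes were. With anti-DNP IgE present 0 were, against 0.509% of all genes. Of the 14, 8 were above 0 in each pair and 1 below 0 in each, with medians of 0.12 and 0.11. The gene past 1.5-fold was Bbc3, which encodes the death factor PUMA. It had a log2 signal of 5.42 in BER, against 4.55 in control, and 5.22 in BER+DNP, against 4.82 in DNP. Ddit4, an inhibitor of mTOR signalling, had 0.40 and 0.17, Sesn1, of the stress-induced sestrins, 0.25 and 0.30, and Ei24 -0.31 and -0.35. Of 16 FoxO targets other than Btg1, 8 were above 0 in each pair and 5 below 0 in each, with medians of 0.06 and 0.01. Of these, 0 were 1.5-fold apart in BER against control. In BER+DNP against DNP 1 was at least 1.5-fold higher, where 0.509% of all genes were. This was the PI3-kinase inhibitor gene Pik3ip1 (0.06 and 0.61). Irs2, an insulin receptor substrate gene, had -0.08 and 0.57, the ubiquitin ligase gene Fbxo32 0.48 and 0.02, and the superoxide dismutase gene Sod2 -0.38 and -0.29. The second values of Pik3ip1 and Irs2 rest on the BER+DNP array, the highest for both. Pik3ip1 had 4.25 there, 3.64 in DNP, 3.86 in BER and 3.80 in control. Irs2 had 5.36, 4.79, 4.68 and 4.76 in the same order. In BER+DNP against BER, Irs2 was also past 1.5-fold, with 0.68, where 0.556% of all genes were higher by as much.

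Immediate early genes, a class to which Btg2 belongs, gave medians of -0.01 and -0.05 in the berberine pairs, with 0 of 15 genes 1.5-fold apart, 3 above 0 in both and 6 below 0 in both. Fos had 0.14 and -0.31, Jun -0.20 and -0.24, Junb -0.28 and 0.31 and Ier5 -0.14 and -0.45. In DNP against control, Fos was the 1 gene of this list at least 1.5-fold higher, with 0.71, where 0.803% of all genes were. Fos had 0.26 in BER+DNP against BER. Btg2 had 0.34 and -0.35 in those comparisons. Genes of other lists also passed 1.5-fold in DNP against control, Cpeb3 (0.74) and Plk2 (0.66) higher and Cdkn1c (-0.61) lower. Of 14 genes of AU-rich element decay, another route of mRNA turnover, 0 were 1.5-fold apart with berberine, 3 were above 0 in each pair and 5 below 0 in each, with medians of 0.00 and -0.10. The stabilising factor gene Elavl1 had -0.39 and -0.53, the decay factor gene Zfp36 0.11 and -0.32, and the decapping genes Dcp1a and Dcp2 -0.22 and 0.14, and 0.37 and -0.14.

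**Figure D5:**
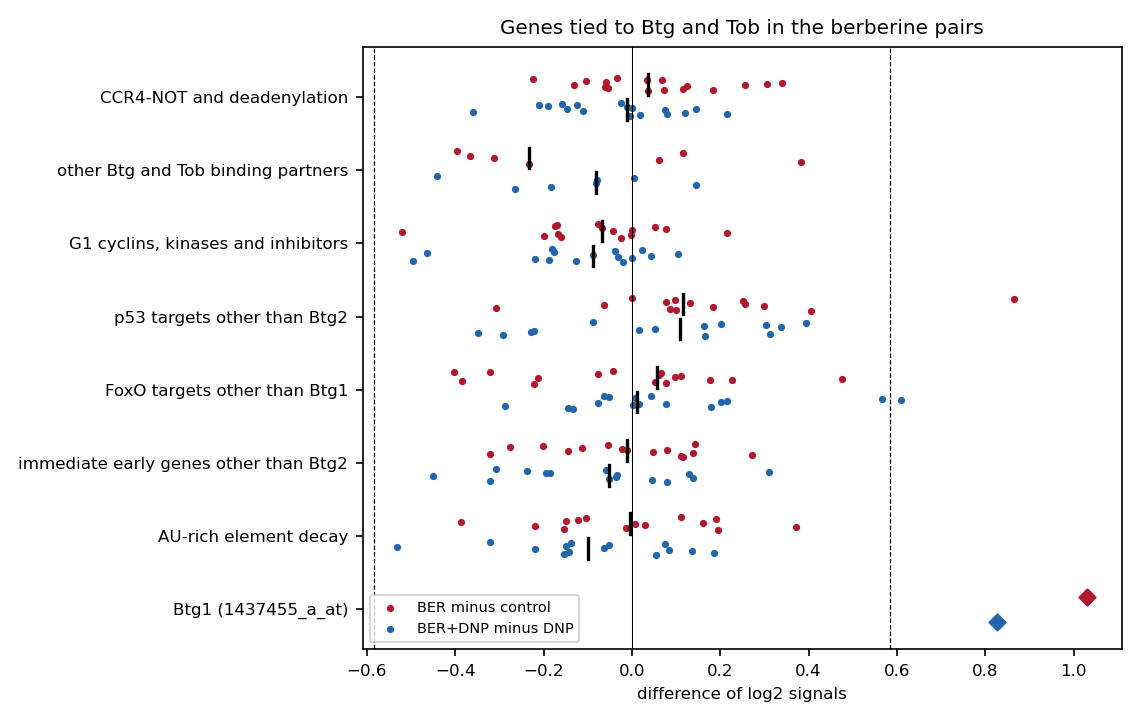
Differences of log2 signals (x axis) of the genes of each list at or above the filter, with BER minus control in red and BER+DNP minus DNP in blue, black bars at the list medians, dashed lines at 1.5-fold and diamonds for Btg1. Bbc3 among p53 targets (0.86) and Pik3ip1 among FoxO targets (0.61) are the only list genes beyond the right line, and Btg1 (1.03 and 0.83) lies beyond it in both pairs.

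Control readings that moved with berberine are given beside the Btg1 result. The control probe set for the 5' end of beta-actin mRNA had a log2 signal of 8.85 in BER, against 9.42 in control, and 9.04 in BER+DNP, against 9.62 in DNP. That for its 3' end had 11.63 in BER, against 11.94 in control, and 11.73 in BER+DNP, against 11.95 in DNP. With berberine the 5' reading differed by -0.57 and -0.59, and the 3' reading by -0.31 and -0.22. For Gapdh the 5' differences were 0.05 and -0.08 and the 3' differences -0.03 and 0.02. The 15 probe sets of the poly-A control RNAs, which are added to a sample before labelling, had median differences of -0.38 in BER against control and -0.04 with anti-DNP IgE present. The part of RNA quality and of labelling in the Btg1 reading was not tested.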

How the data were processed

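Total RNA of 4 cultures was labelled and read on Affymetrix Mouse Genome arrays, 1 array a group. The deposited table holds log2 signals that the authors made with Affymetrix Expression Console, per the submitters' processing notes; its version, its summary and background methods and any detection calls were not stated in the labels or files used. That the unit is log2 was read from the values. The values were used as deposited. Of 45101 probe sets, 64 controls were set apart. Symbols came from the platform annotation dated 2016: 34945 probe sets had 1 symbol, 932 several and 9160 none, and 34741 of the first matched RefSeq GRCm38.p6 by gene identifier. A gene was its brightest probe set by mean signal, counted at or above a mean of 3.138. Comparisons are differences of log2 signals between 2 arrays, with counts at 1.5-fold and no test. Named were all members, the 6 nearest genes to Btg1, and in each of 7 lists up to 4 genes with the largest mean absolute berberine difference plus 5 fixed binding partners. The members and lists were chosen with earlier results of these data known. Steps were tested on simulated data, in Python 3.11.15 with pandas 2.3.3 and numpy 2.4.6.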

Additional observations from a re-analysis of the deposited data

Results flagged for a closer look

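The brighter Btg2 probe set, 1416250_at, differed in opposite directions in the 2 pairs of each agent. Its berberine difference was -0.45 with anti-DNP IgE and 0.24 without it, a difference of -0.69 between them on the log2 scale. Its anti-DNP IgE difference was -0.35 with berberine and 0.34 without it, and the difference between these is the same -0.69, because both come from the same 4 arrays. With 1 array a group the difference was not tested. The other Btg2 probe set, 1448272_at, gave -0.07 for the same quantity. With 32 added to the linear signals the Btg2 differences were -0.16 in BER+DNP against DNP and -0.12 in BER+DNP against BER.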

How the results depend on the processing

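The Btg1 berberine differences stayed above 1.5-fold under every alternative run: quantile normalization, array medians subtracted, 32 or 100 added to the linear signals, a gene read by the median over its probe sets, and leaving out probe sets with the suffixes s and x. They ran between 0.90 and 1.06 in BER against control and between 0.74 and 0.95 in BER+DNP against DNP. The count of members 1.5-fold higher in both pairs was 1, and of those lower 0, under these, without the filter, with it at the 75th percentile, and with the probe set 1449007_at taken as Btg3, an alternative chosen after seeing the data. The Btg1 differences chose the family, so their staying above 1.5-fold is a description and no support. Leaving out the suffixes s and x could not change them, since 1437455_a_at carries the suffix a. Its mean log2 signal of 9.57 could not fall to either filter. The median over probe sets takes 1426083_a_at, which was also part of the pick. Over all genes, the count higher in both pairs was 10, and 3 with 32 added, 2 with 100 added (Abhd4 and Btg1) and 5 by the median over probe sets. The count lower was 20, and 12 with quantile normalization, 8 and 4 with 32 and 100 added, 9 by the median over probe sets and 13 without suffixes s and x. With Btg1 read by the median of its probe sets, or by 1426083_a_at (chosen after seeing the data), its anti-DNP IgE differences were 0.053 in DNP against control and -0.20 in BER+DNP against BER; both settings take the same probe set, which shows the cause. Without suffixes s and x, Tob2 had 0.10 in BER against control, -0.09 in BER+DNP against DNP, 0.03 in DNP against control and -0.17 in BER+DNP against BER, each with the sign turned, and by the median over probe sets it had 0.03 in DNP against control. All 224 list medians moved by less than the spread over genes, a standard deviation between 0.20 and 0.23. Apart from that of the other binding partners in BER against control, -0.23, the medians are themselves smaller in size than this spread. A shrinkage towards 0 could therefore not exceed it, so the comparison says little about how steady they are. The median of -0.23 was -0.12 with 32 added and -0.05 with 100 added, -0.07 without the filter and -0.09 by the median over probe sets. No paired analysis was possible because each group holds 1 array, so that the groups share a single replicate number; the pairs in the text match arrays on the other agent. The low signals of Btg2 and Btg4 limit what can be said of them.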
